A study of Mus musculus with 12 samples.

Results

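The mouse cells compared here differed in 1 residue of an introduced nuclear receptor. Untreated cells that carried S273A PPARγ, in which alanine replaces Ser273, were set against untreated cells that carried wild-type PPARγ. The comparison rests on 6 of the series' 12 arrays, the 3 titled as mutant and the 3 titled as wild-type without a ligand. It covers all 8675 genes measured above a brightness limit. All cells were embryonic fibroblasts from PPARγ knockout mice into which 1 of the receptor forms had been introduced, and all were differentiated for 6 days. The series text names the substitution S273A, while the sample titles say only mutant, and these were taken as the same cells. The remaining 6 arrays held wild-type cells given 1 µM rosiglitazone or 1 µM MRL24 for 24 h, 3 arrays each. No vehicle is named for the untreated cells. The labels do not say which promoter drove the receptor, how it was delivered or whether a form was introduced more than once. Differences between the receptor forms and differences between the 2 populations of cells that carried them therefore cannot be told apart. Nothing in the labels says that replicates came from separate cultures, so p-values reflect only how these arrays vary within a group, and that variation may be technical.

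PPARγ binds DNA as a heterodimer with a retinoid X receptor and drives the program that turns fibroblasts into fat cells, including genes for fatty acid uptake, lipid storage and fat cell hormones. Ser273 lies in its ligand-binding region and is phosphorylated in fat tissue by CDK5 and by ERK kinases. Alanine cannot be phosphorylated. Rosiglitazone is a full agonist of the receptor, and MRL24 is a partial agonist.

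The deposited values are intensities, the brightness of a probe set on a linear scale, already brought by the authors to array medians between 296.8 and 314.9. The 12 arrays were fitted in 1 limma model of log2(intensity + 16), and genes with a Benjamini-Hochberg adjusted p below 0.05 were called. All log2 differences below are S273A minus wild-type on that scale unless another pair is named, with n = 3 arrays per group, and they understate the change of dim genes. An array, wild-type replicate 2, lay far from the rest. On the first principal component it scored -16.1 against -6.05 to 7.92 for the other 11, its residual SD was 0.142 against 0.0883 to 0.12, and the intensity of its bioB spike control was 1417 against 891 to 1198. The ratio of 3′ to 5′ actin probe sets, which rises as RNA degrades, was 1.05 to 1.15 in wild-type and 1.05 to 1.06 in S273A arrays. Array weights gave it 0.297, and the number of genes called was then 586.

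The receptor's own transcript, Pparg, gave intensities of 941, 978 and 793 in the wild-type arrays and 1249, 1042 and 929.5 in the S273A arrays. The groups overlapped, and the log2 difference was 0.24 (SE 0.1, adjusted p = 0.173), which did not pass the test. An array reads both forms alike, so these values do not check the mutation. Whether the probe set reads the introduced RNA or RNA left from the knockout allele was not tested. Fabp4, the fatty acid carrier typical of fat cells, was bright in both groups, with intensities of 9320.2, 10368 and 8838 in the wild-type arrays and 10156, 9702 and 9246 in the S273A arrays. Its log2 difference was 0.031 (adjusted p = 0.773). Adipoq, the gene of the fat cell hormone adiponectin, was dim: 37.3, 62.4 and 60.9 in the wild-type arrays and 90.9, 106 and 94.6 in the S273A arrays, below the brightness limit. Every S273A array lay above every wild-type array, and the adjusted p was 0.0704 when no gene was left out for low brightness. Cidec and Lep, fat cell markers also below the limit, overlapped. Cidec read 7.93, 14.6 and 32.6 in the wild-type arrays and 2.86, 14.1 and 5.07 in the S273A arrays. In that fit Cidec differed by -0.525 (adjusted p = 0.366) and Lep by 0.0717 (adjusted p = 0.958). Of the 9 fat cell markers tested, all had log2 differences above 0, and 2 were called, or 22.2%, against 7.78% of all genes. Bulk arrays cannot tell fewer cells of a type from less RNA per cell. None of 4 sex chromosome genes was called by limma, although all 4 lay below 0 in S273A cells, with 0 of 4 at an unadjusted p under 0.05. Of 31 Hox and other positional genes, 1 was called, Meis1, and this call was lost without S273A replicate 1 or 3, wild-type replicate 1 or 2, any 1 rosiglitazone array or any 1 MRL24 array (adjusted p up to 0.136). Tbx18 of that list, below the limit, read 35.5, 59.3 and 23.5 in wild-type and 86.0, 79.3 and 76.3 in S273A arrays. Its log2 difference was 0.851 (adjusted p = 0.0389) when no gene was left out for low brightness. Hoxb7 and Tbx5 were also higher in every S273A array (adjusted p = 0.0775 and 0.134 in that fit). The other members below the limit overlapped, and 23.0% of all genes tested did not overlap.

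S273A cells differed from wild-type cells at 675 of the 8675 genes, or 7.78%. Of these, 475 were lower with S273A (5.48% of the genes tested) and 200 were higher (2.31%). Most changes were small. The median size of a called difference was 0.295 on the log2 scale. Only S100a8 passed 2-fold, while 9 genes rose and 22 fell by more than 1.5-fold. The arrays of the groups did not overlap at 668 of the called genes, against 23.0% of all genes tested. The median log2 difference over all genes was -0.0054, so the distribution as a whole was centred near 0. Calls rested more on some arrays than on others. The count was 396 without S273A replicate 3 and 429 without S273A replicate 2, and fitting the 6 arrays alone gave 243. With each of the 12 arrays left out in turn, 296 genes kept their call, 235 of them lower and 61 higher. Genes said to rise or fall below are among those 296 unless the arrays that end the call are named.

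**Figure D1:**
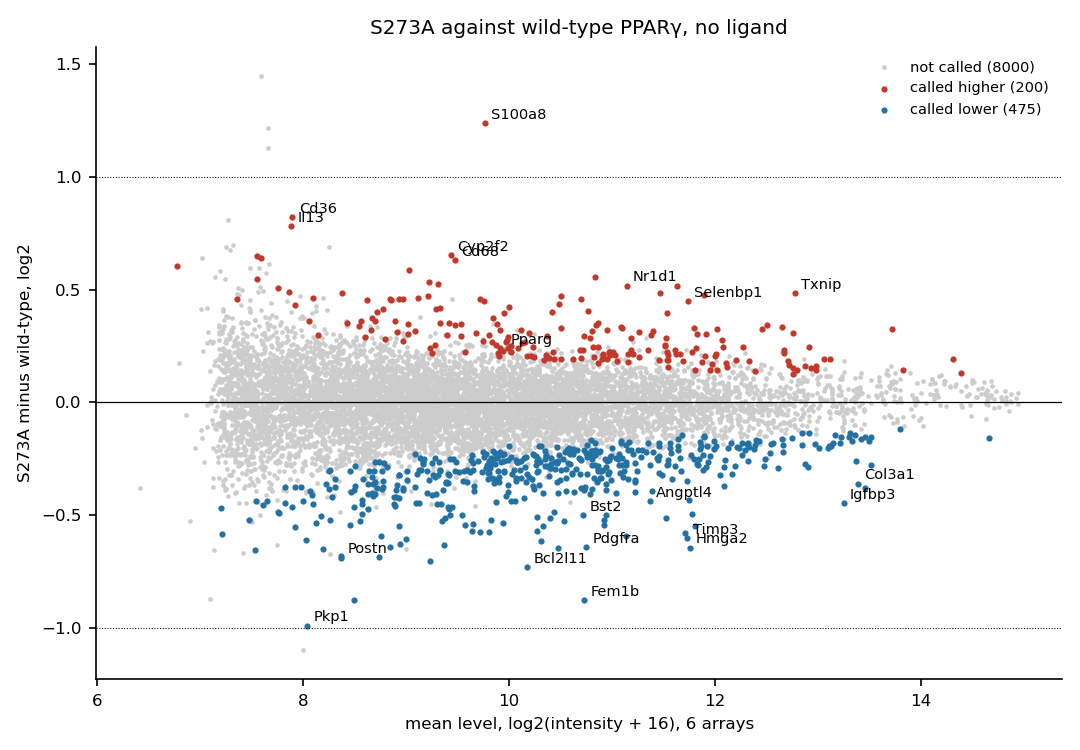
Each point is 1 of the 8675 genes tested, with its mean level over the 6 arrays on the horizontal axis (log2 of intensity + 16) and the S273A minus wild-type difference on the vertical axis (log2); red and blue points are the 200 and 475 genes called higher and lower, and dotted lines mark 2-fold. Called falls outnumber called rises over most of the range, and only S100a8 lies past a dotted line among called genes.

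Called genes were more frequent among bright genes. Cut by brightness into 5 groups of like size, 1.33% of the dimmest genes were lower and 0.749% higher with S273A, and 8.47% and 4.67% of the brightest. Genes that fell were also longer: their median span on the genome was 28.1 kb, against 16.8 kb for genes that rose and 21.9 kb for all genes tested. Cut the same way by span, 4.5% of the shortest genes were lower and 7.44% of the longest. Many genes are read by more than 1 probe set. Of 522 further probe sets for called genes, 403 (77.2%) had the same sign as the brightest one used here, against 57.8% for genes not called, and 108 were called in the same direction and 7 in the opposite one. At 188 of these 326 genes, at least 1 further probe set was not called and had the opposite sign or less than 50% of the size. Among the genes named below, such probe sets are given beside Abca1, Abhd5, Arrdc4, Bysl, Efnb2, Fzd7, Hif1a, Mfap5, Pdgfra, Ptgs2, Spred2, Timp3, Vcl, Vegfa and Xbp1. Others with such a probe set are Adam10, Adam17, Apaf1, Atf4, Atg7, Atp6v1a, Bcl2l11, Col4a1, Cs, Ctnnb1, Cyp1b1, Ddr1, Dpysl3, Edem1, Gas1, Id2, Lpin1, Nampt, Nfkbiz, Ogn, Pfkp, Ptch1, Rgs5, Samhd1, Smad1, Sparc, Tgfbi and Vcan. The values given for all these genes are those of the brightest probe set.

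S100a8 had the largest rise among called genes. It encodes a calcium-binding protein of neutrophils and monocytes that forms calprotectin with S100a9. Intensities were 528, 675 and 472 in the wild-type arrays and 1304, 1344 and 1321 in the S273A arrays. Every S273A array was far above every wild-type array, and the log2 difference was 1.24 (SE 0.10, adjusted p = 3.11e-06). The ligand-treated wild-type arrays lay with untreated wild-type, at 488, 532 and 577 with rosiglitazone and 459.6, 417 and 463 with MRL24. Its partner S100a9 stayed near background, with 50.8, 25.3 and 40.7 in the wild-type arrays and 49.4, 29.1 and 44.9 in the S273A arrays, and these overlapped. Of the 10 neutrophil and other myeloid markers on the array 7 lay below the brightness limit, among them Csf3r, Cxcr2, Mpo and Elane.

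Cd36, the fatty acid transporter and a direct PPARγ target, followed. Intensities were 177, 150.3 and 164 in the wild-type arrays and 278, 330.1 and 297 in the S273A arrays. No arrays overlapped, and the log2 difference was 0.82 (SE 0.081, adjusted p = 1.66e-05). A further probe set gave 0.99 (adjusted p = 0.000249) and a dimmer one 0.30 (adjusted p = 0.307). The S273A level stayed far below that of wild-type cells with rosiglitazone, 1442, 1448 and 1376, and below the 405, 406 and 422 with MRL24. Tested directly, S273A minus rosiglitazone was -2.18 (SE 0.081, adjusted p = 5.13e-11) and S273A minus MRL24 was -0.43 (SE 0.081, adjusted p = 0.0041).

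Cd68, a lysosomal glycoprotein abundant in macrophages, read 548, 597 and 525 in the wild-type arrays and 875, 857 and 878 in the S273A arrays, with no overlap and a difference of 0.63 (SE 0.07, adjusted p = 4.55e-05). Il13, a cytokine of type 2 immunity, was dim in wild-type cells at 154, 193 and 148 and reached 262, 363 and 266 with S273A, a difference of 0.78 (SE 0.16, adjusted p = 0.00578). Cyp2f2, a cytochrome P450, read 527, 583 and 506 in the wild-type arrays and 863, 892 and 813 in the S273A arrays, and the difference was 0.66 (SE 0.066, adjusted p = 1.66e-05). All S273A arrays were higher for each of these. Rarres2, which encodes the fat cell hormone chemerin, read 1316, 1781 and 1411 in the wild-type arrays and 2166, 2223 and 2208 in the S273A arrays. Wild-type replicate 2 was the highest of its group and still below every S273A array, and the difference was 0.56 (SE 0.085, adjusted p = 0.00083).

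Nr1d1, the haem-binding clock repressor REV-ERBα, read 1802, 1762 and 2067 in the wild-type arrays and 2630.4, 2755 and 2684 in the S273A arrays, a difference of 0.52 (SE 0.064, adjusted p = 0.000129). Rictor, the defining subunit of mTOR complex 2, read 515, 462 and 562 in the wild-type arrays and 817, 771 and 653 in the S273A arrays, a difference of 0.53 (SE 0.089, adjusted p = 0.0017). Ccng1, cyclin G1, a p53 target, read 2798, 2307 and 2856 in the wild-type arrays and 3830.0, 4127 and 3452 in the S273A arrays, a difference of 0.52 (SE 0.076, adjusted p = 0.000566). The arrays of the groups did not overlap for any of the 3. Cdk18, a cyclin-dependent kinase of the PCTAIRE group, differed by 0.53 (SE 0.086, adjusted p = 0.00117) and Ankrd33b by 0.59 (SE 0.071, adjusted p = 0.000106). The other 4 of the 15 largest rises lost their calls with single arrays left out. Bysl (difference 0.65, adjusted p = 0.0204) lost it without S273A replicate 3 or wild-type replicate 2 or 3 (adjusted p up to 0.106), and its second probe set read -0.14 (adjusted p = 0.564). Car3, carbonic anhydrase 3 (log2 difference 0.60, adjusted p = 0.0248), lost it without S273A replicate 1 or 2 or wild-type replicate 3 (adjusted p up to 0.119). Mcpt8, a basophil protease (log2 difference 0.64, adjusted p = 0.0427), lost it without any 1 S273A array, wild-type replicate 1 or 2, rosiglitazone replicate 1 or MRL24 replicate 1 or 2 (adjusted p up to 0.132). Dido1 (log2 difference 0.55, adjusted p = 0.0468) lost it without S273A replicate 1 or 2, any 1 untreated wild-type array, any 1 rosiglitazone array or MRL24 replicate 1 (adjusted p up to 0.158). Car3 was dim, at 82.6, 75.2 and 62.2 in the wild-type arrays and 128.3, 145.5 and 90.2 in the S273A arrays. The brightness limit of 132 was set on the mean of all 12 arrays, and Car3 passed it only through its ligand-treated arrays.

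**Figure D2:**
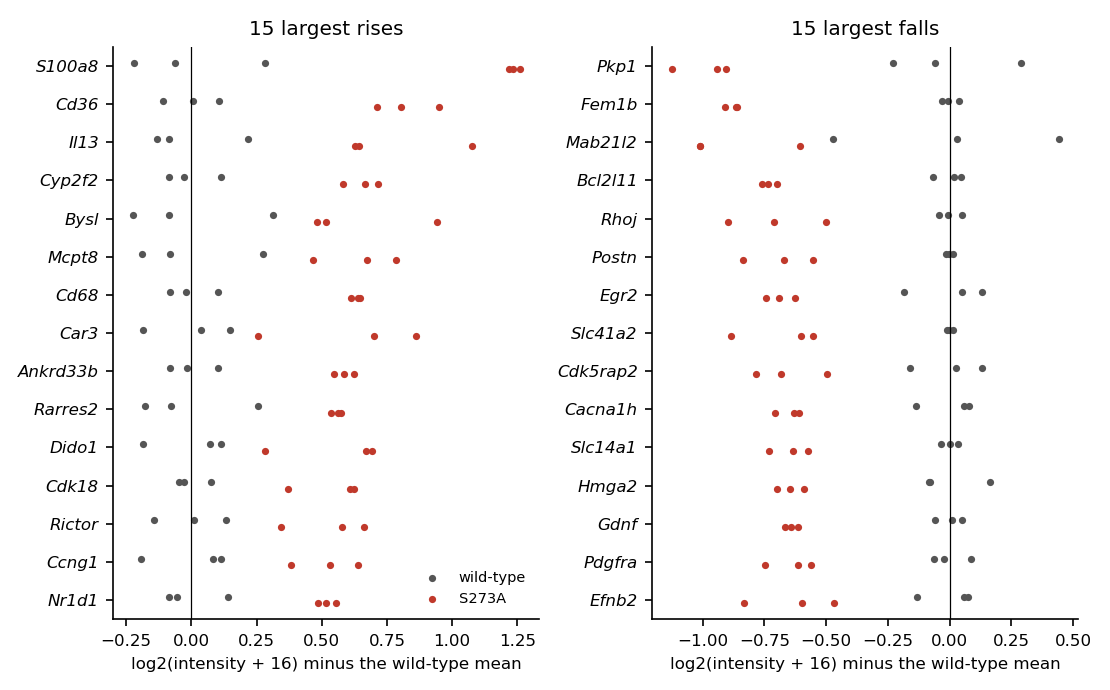
Each row is a gene, each point 1 array, and the horizontal axis is log2(intensity + 16) minus the wild-type mean of that gene, for the 15 called genes that rose most (left) and fell most (right) with S273A among genes whose arrays do not overlap. The 3 S273A points of S100a8, Cd68 and Fem1b lie close together, while those of Car3, Dido1 and Mab21l2 spread widely.

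Fem1b had the smallest p of all falls. It encodes a substrate receptor of a cullin-2 ubiquitin ligase. Intensities were 2281, 2356 and 2243 in the wild-type arrays and 1254, 1214 and 1253 in the S273A arrays. The groups were tight and did not overlap, and the difference was -0.88 (SE 0.045, adjusted p = 2.16e-08). Its second probe set, also above the brightness limit, fell less, with a log2 difference of -0.25 (adjusted p = 0.0364). Wild-type cells with either ligand lay between, at 1915, 1881 and 1884 with rosiglitazone and 1893, 1964 and 1948 with MRL24. Bcl2l11, the pro-apoptotic protein BIM, read 1493, 1524 and 1406 in the wild-type arrays and 901, 879.8 and 863 in the S273A arrays, with no overlap and a difference of -0.73 (SE 0.053, adjusted p = 1.61e-06). Of its 4 other probe sets, all had negative differences, and 2 of them were called, at -0.50 (adjusted p = 0.00156) and -0.39 (adjusted p = 0.00759). Pkp1, a desmosomal plakophilin, had the largest fall among called genes: 341, 437 and 300.5 in the wild-type arrays and 182, 177 and 154 in the S273A arrays, a difference of -0.99 (SE 0.12, adjusted p = 0.000121).

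Hmga2, a chromatin protein of embryonic and proliferating mesenchymal cells, read 4075, 4825 and 4064 in the wild-type arrays and 2749.6, 2644 and 2861 in the S273A arrays. No arrays overlapped, the difference was -0.64 (SE 0.068, adjusted p = 2.69e-05), and its other probe sets gave -0.84 (adjusted p = 8.41e-05) and -0.67 (adjusted p = 6.39e-05). Egr2, a zinc-finger transcription factor induced by growth factors, read 579, 546 and 462 in the wild-type arrays and 320.2, 335 and 308 in the S273A arrays, a difference of -0.69 (SE 0.096, adjusted p = 0.000384). Rhoj, a small GTPase of the Cdc42 family, fell, with a log2 difference of -0.70 (adjusted p = 0.000212). Slc14a1, a urea transporter, read 1809, 1767 and 1724 in the wild-type arrays and 1132, 1180.5 and 1059 in the S273A arrays, a difference of -0.65 (SE 0.054, adjusted p = 3.46e-06). Slc41a2, a magnesium transporter, differed by -0.68 (adjusted p = 0.000256) and Cacna1h, a T-type calcium channel, with -0.65 (adjusted p = 0.00345), although with the mean of the probe sets of each gene the latter was -0.289 (adjusted p = 0.24). Mab21l2 (log2 difference -0.88, adjusted p = 0.0115) lost its call without S273A replicate 2 or 3 (adjusted p up to 0.0544), and Cdk5rap2 (log2 difference -0.65, adjusted p = 0.0165) without S273A replicate 2 or wild-type replicate 3 (adjusted p up to 0.0722).

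The study's own list is that of genes tied to phosphorylation at Ser273. It follows published work and was chosen on these or related samples, so its direction is not independent evidence. Of 16 genes 14 had a probe set, and Cfd and Rybp were not analysed here. Of the 12 above the brightness limit 6 were higher with S273A and 0 lower, against 2.31% and 5.48% of all genes, and their median log2 difference was 0.31 against -0.0054 over all genes. The 6 were Cyp2f2, Car3, Rarres2, Nr1d1, Txnip and Selenbp1. Car3 passed the limit only through its ligand-treated arrays. Adipoq and Cidec, below the limit, went opposite ways. When no gene was left out for low brightness, their log2 differences were 0.723 (adjusted p = 0.0704) and -0.525 (adjusted p = 0.366). Txnip, a thioredoxin inhibitor that limits glucose uptake, read 6036, 5896 and 5857 in the wild-type arrays and 8016, 8328 and 8607 in the S273A arrays. Its groups were tight and well apart, the difference was 0.49 (SE 0.036, adjusted p = 1.86e-06), and its second probe set gave 0.63 (adjusted p = 0.00154). Selenbp1, a selenium-binding protein that oxidizes methanethiol, read 3036, 2873 and 2824 in the wild-type arrays and 3534, 4223 and 4228 in the S273A arrays, a difference of 0.45 (SE 0.065, adjusted p = 0.000477). S273A replicate 1 was the lowest of its group and still above all wild-type arrays.

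The 6 genes of that list that did not pass were Peg10 (log2 difference 0.17, adjusted p = 0.512), Cd24a, Nr1d2, Aplp2, Nr3c1 and Ddx17, with differences from -0.029 to 0.17. Peg10, an imprinted gene of retrotransposon origin, read 80.5, 94.0 and 91.2 in the wild-type arrays and 117, 87.7 and 102 in the S273A arrays, which overlapped. It was far brighter with rosiglitazone, 304, 276 and 313, and S273A minus rosiglitazone was -1.41 (SE 0.14, adjusted p = 6.03e-06). Car3 showed the same order, with 482, 424 and 467 with rosiglitazone against 128, 146 and 90.2 with S273A, a direct difference of -1.81 (SE 0.15, adjusted p = 1.42e-06). Peg10 and Car3 passed the brightness limit, set on the mean of all 12 arrays, only through ligand-treated arrays. The direct tests of these genes use the same bright rosiglitazone arrays, so they are not separate support. For 3 genes of the list S273A cells were higher than both ligand-treated groups by the direct tests. Selenbp1 in S273A cells exceeded rosiglitazone-treated cells by 0.36 (SE 0.065, adjusted p = 0.0018) and MRL24-treated cells by 0.37 (SE 0.065, adjusted p = 0.00221). Rarres2 exceeded them by 0.31 (SE 0.085, adjusted p = 0.0316) and 0.68 (SE 0.085, adjusted p = 0.00015), and Cyp2f2 by 0.23 (SE 0.066, adjusted p = 0.0394) and 0.27 (SE 0.066, adjusted p = 0.0163). For Nr1d1, S273A minus rosiglitazone was 0.03 (SE 0.064, adjusted p = 0.84), which did not pass. Over all genes, 9.56% were called between S273A and rosiglitazone and 10.0% between S273A and MRL24.

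**Figure D3:**
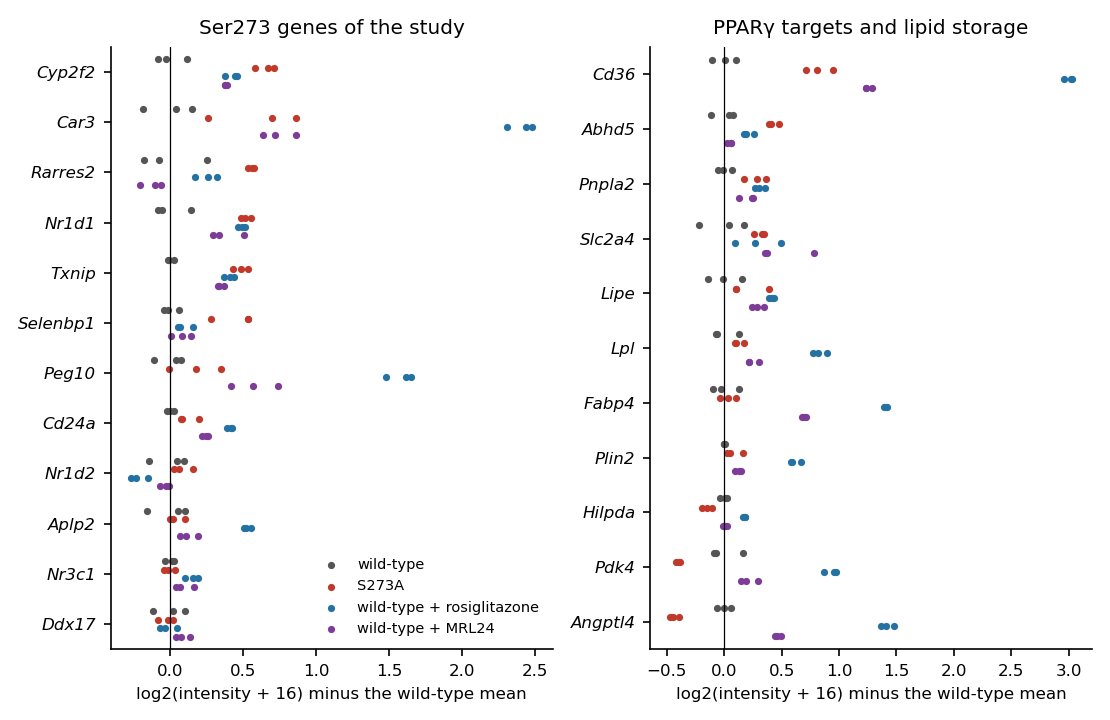
Points are single arrays of the 4 groups, plotted as log2(intensity + 16) minus the untreated wild-type mean of each gene, for the 12 tested genes of the Ser273 list (left, ordered by the S273A difference) and for 11 PPARγ targets and lipid storage genes (right). S273A points of Cd36 lie between untreated and ligand-treated wild-type cells, whereas those of Pdk4 and Angptl4 lie below 0 and ligand-treated ones above it.

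None of 4 tested nuclear receptors of the PPARγ complex was called by limma, with 1 at an unadjusted p under 0.05. Rxra, the usual partner, read 633, 585 and 704 in the wild-type arrays and 684, 710.3 and 730.0 in the S273A arrays, which overlapped (log2 difference 0.14, adjusted p = 0.248). Of 17 coregulators 1 was called, Ncoa4, a coactivator that also delivers ferritin to the lysosome (log2 difference 0.22, adjusted p = 0.0204), and it lost the call without S273A replicate 2 or 3 or wild-type replicate 1 or 3 (adjusted p up to 0.101). Cdk5 read 571, 477 and 683 in the wild-type arrays and 696, 519 and 682 in the S273A arrays and its activator Cdk5r1 240.5, 167 and 232 in the wild-type arrays and 218, 259 and 228 in the S273A arrays. Both overlapped, with differences of 0.13 (SE 0.12, adjusted p = 0.561) and 0.15 (SE 0.13, adjusted p = 0.559). Map2k1, the kinase MEK1 that activates ERK, was lower (log2 difference -0.18, adjusted p = 0.0151) and lost the call without S273A replicate 3 or wild-type replicate 1 (adjusted p up to 0.0591). Of 18 transcription factors of fat cell formation 0 rose and 3 fell, against 2.31% higher and 5.48% lower over all genes. Those were Id2, a dominant-negative helix-loop-helix protein (log2 difference -0.35, adjusted p = 0.000658), Xbp1, which drives secretory capacity (log2 difference -0.28, adjusted p = 0.00119), and Klf4 (log2 difference -0.35, adjusted p = 0.0173), whose call was lost without S273A replicate 2 or 3 (adjusted p up to 0.0784). Of further Xbp1 probe sets 1 was called, at -0.30 (adjusted p = 0.0146), and 2 were not, at -0.15 (adjusted p = 0.323) and 0.065 (adjusted p = 0.9). Cebpa overlapped, at 263, 335 and 340.5 in the wild-type arrays and 401, 303 and 349 in the S273A arrays, and differed by 0.16 (SE 0.11, adjusted p = 0.441). Among 15 inhibitors of fat cell formation, Wnt5a fell (log2 difference -0.55, adjusted p = 0.00824) and Ctnnb1, β-catenin, was lower (log2 difference -0.13, adjusted p = 0.0398), the latter call being lost without S273A replicate 2 or 3, wild-type replicate 1, any 1 rosiglitazone array or any 1 MRL24 array (adjusted p up to 0.165). Without wild-type replicate 2, 4 inhibitors were lower.

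Genes that PPARγ agonists raise moved both ways with S273A. Of 32 tested, 4 were higher, 3 lower and 25 not called, against 2.31% higher and 5.48% lower over all genes, with a median of 0.052. Of those higher, only Cd36 kept its call with each array left out. Without wild-type replicate 1 or S273A replicate 2 the count of higher targets was 1, and without wild-type replicate 3, S273A replicate 1 or S273A replicate 3 it was 2. The 3 falls kept their calls. Angptl4, a secreted inhibitor of lipoprotein lipase, read 3062, 3188 and 2933 in the wild-type arrays and 2201, 2328 and 2243 in the S273A arrays. Every S273A array was lower, with a difference of -0.44 (SE 0.045, adjusted p = 2.1e-05). Wild-type cells with rosiglitazone read 8146, 8548 and 7907 and with MRL24 4208, 4166 and 4326, so the S273A level was the lowest of the 4 groups. S273A minus rosiglitazone was -1.85 (SE 0.045, adjusted p = 2.36e-13) and S273A minus MRL24 was -0.90 (SE 0.045, adjusted p = 1.38e-08). Pdk4, which shuts off pyruvate dehydrogenase, read 1394, 1638 and 1374 in the wild-type arrays and 1113, 1088 and 1117 in the S273A arrays, a difference of -0.40 (SE 0.066, adjusted p = 0.00144). It read 2889, 2688 and 2858 with rosiglitazone, a direct difference of -1.33 (SE 0.066, adjusted p = 2.54e-09). Hilpda, a lipid droplet protein that inhibits lipolysis, fell, with a log2 difference of -0.15 (adjusted p = 0.00956). Lpl, the lipase of lipoprotein triglycerides, overlapped at 1908, 2180.1 and 1893 in the wild-type arrays and 2124, 2134 and 2245 in the S273A arrays and differed by 0.12 (SE 0.058, adjusted p = 0.237). The strict form of the PPAR response element, AGGTCA repeated after 1 base on either strand, was found in 13 of 32851 promoter windows (0.0396%) and in 0 of the 23 agonist targets with a window, which covers only the 300 bases around the start.

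Of 14 genes of lipid droplets and lipolysis 2 were higher and 1, Hilpda, lower, against 5.48% lower and 2.31% higher over all genes. Abhd5, the coactivator of the triglyceride lipase ATGL, read 891, 914 and 798 in the wild-type arrays and 1137, 1208 and 1153 in the S273A arrays, with no overlap and a difference of 0.42 (SE 0.061, adjusted p = 0.000532). Its second probe set gave 0.14 (adjusted p = 0.407). It was higher with S273A than with either ligand, by 0.22 (SE 0.061, adjusted p = 0.036) over rosiglitazone and 0.38 (SE 0.061, adjusted p = 0.00145) over MRL24. Pnpla2, ATGL itself, read 737, 761 and 804 in the wild-type arrays and 864, 937 and 992 in the S273A arrays, a difference of 0.27 (SE 0.065, adjusted p = 0.0169), and lost its call without S273A replicate 2 or 3 or wild-type replicate 1 (adjusted p up to 0.0844). Of 21 genes of fatty acid and triglyceride synthesis 2 were higher and 1 lower, and none kept its call with each array left out. Scd1, the fatty acid desaturase (log2 difference 0.15, adjusted p = 0.026), lost it without S273A replicate 1 or 2 or wild-type replicate 1 or 3 (adjusted p up to 0.114). Dgat1, which makes triglyceride (log2 difference 0.22, adjusted p = 0.0396), lost it without any 1 S273A array, wild-type replicate 1 or 3, rosiglitazone replicate 2 or 3 or any 1 MRL24 array (adjusted p up to 0.133), and Lpin1, a phosphatidate phosphatase (log2 difference -0.32, adjusted p = 0.0418), without S273A replicate 1 or 2, wild-type replicate 2, any 1 rosiglitazone array or MRL24 replicate 2 or 3 (adjusted p up to 0.156). Of 23 fatty acid oxidation genes and 23 peroxisomal genes 0 were called by limma, with 3 of each list at an unadjusted p under 0.05.

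Of 56 subunits of oxidative phosphorylation 2 were higher and 0 lower, against 2.31% and 5.48% of all genes, and 9 were higher without wild-type replicate 2. The count higher was 0 without wild-type replicate 3 or S273A replicate 2, and 1 without wild-type replicate 1, S273A replicate 3, rosiglitazone replicate 3 or MRL24 replicate 1 or 2. The 2 were Uqcrfs1, the Rieske protein of complex III (log2 difference 0.19, adjusted p = 0.0242), and Sdhd of complex II (log2 difference 0.25, adjusted p = 0.0374). Uqcrfs1 lost its call without S273A replicate 2 or 3 or wild-type replicate 3 (adjusted p up to 0.118) and Sdhd without S273A replicate 1 or 2, wild-type replicate 1 or 3, rosiglitazone replicate 3 or MRL24 replicate 1 or 2 (adjusted p up to 0.15). Pcx, pyruvate carboxylase, which feeds pyruvate into the tricarboxylic acid cycle, read 556, 584 and 625 in the wild-type arrays and 729.6, 785 and 749 in the S273A arrays, with no overlap and a difference of 0.35 (SE 0.064, adjusted p = 0.00286). Of 29 genes of that cycle and of pyruvate metabolism 4 were higher and 1 lower, against the same shares of all genes. Pcx and Pdk4 were the calls that held with each array left out. The other 3 were Sdhd, Cs, citrate synthase (log2 difference 0.14, adjusted p = 0.0453), and Idh3b of isocitrate dehydrogenase (log2 difference 0.16, adjusted p = 0.0399). Cs lost its call without S273A replicate 2 or 3, any 1 untreated wild-type array, any 1 rosiglitazone array or any 1 MRL24 array (adjusted p up to 0.146), and Idh3b without any 1 S273A array, wild-type replicate 1 or 3, any 1 rosiglitazone array or any 1 MRL24 array (adjusted p up to 0.136).

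Glucose-responsive Txnip and Arrdc4 rose while a hexokinase fell. Arrdc4, like Txnip an arrestin-fold protein whose gene responds to glucose, read 1583, 1709.5 and 1598 in the wild-type arrays and 2047, 2219.9 and 1999.7 in the S273A arrays, a difference of 0.35 (SE 0.055, adjusted p = 0.000992). A second, dimmer probe set had the opposite sign, -0.20 (adjusted p = 0.588), and did not pass. Hk2, hexokinase 2, which commits glucose to glycolysis, read 5595, 4731 and 5081 in the wild-type arrays and 4222, 4289 and 3834 in the S273A arrays, a difference of -0.32 (SE 0.057, adjusted p = 0.00264). Neither pair of groups overlapped. Among 21 genes of glycolysis and glucose uptake, which include these, 3 were higher and 2 lower, against 2.31% and 5.48% of all genes. Eno2 was higher (log2 difference 0.21, adjusted p = 0.0398) and lost its call without any 1 S273A array, wild-type replicate 2 or 3, rosiglitazone replicate 3 or any 1 MRL24 array (adjusted p up to 0.119), and Pfkp was lower (log2 difference -0.18, adjusted p = 0.0448) and lost it without any 1 S273A array, wild-type replicate 1 or 3, any 1 rosiglitazone array or any 1 MRL24 array (adjusted p up to 0.161). Slc2a4, the insulin-regulated glucose transporter GLUT4, read 189, 155 and 209 in the wild-type arrays and 237, 222 and 234 in the S273A arrays. Every S273A array was higher, but the difference of 0.31 (SE 0.14, adjusted p = 0.203) did not pass.

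Among 30 genes of insulin and IGF signalling the main change was a fall of Igfbp3, the main carrier of IGFs in blood. Intensities were 11734, 11036 and 11344 in the wild-type arrays and 8238, 8237 and 8553 in the S273A arrays. The groups were tight and far apart, and the difference was -0.45 (SE 0.036, adjusted p = 2.93e-06). Wild-type cells with ligands stayed at 11802, 11912 and 11158 and 11712, 12117 and 11908, and S273A was lower than both, with differences of -0.48 (SE 0.036, adjusted p = 4.62e-07) from rosiglitazone and -0.51 (SE 0.036, adjusted p = 6.49e-07) from MRL24. Rictor rose as given above. Pik3ca, the catalytic subunit p110α, was lower (log2 difference -0.42, adjusted p = 0.0468) and lost its call without S273A replicate 1 or 3, wild-type replicate 2 or 3, rosiglitazone replicate 1 or 2 or any 1 MRL24 array (adjusted p up to 0.179). The other 27 members were not called, so 10.0% of the list was called against 7.78% of all genes.

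Fat cell hormones and other secreted factors had 4 of 14 higher and 4 lower, against 5.48% lower and 2.31% higher over all genes. Agt, angiotensinogen, read 548, 543 and 533 in the wild-type arrays and 700.3, 727 and 765 in the S273A arrays, with no overlap and a difference of 0.42 (SE 0.063, adjusted p = 0.000722). Nampt, visfatin, rose by 0.22 (adjusted p = 0.00814), and Rarres2 rose as given above. Rbp4 was higher (log2 difference 0.27, adjusted p = 0.0325) and lost its call without any 1 S273A array or any 1 untreated wild-type array (adjusted p up to 0.107). Vegfa, the angiogenic growth factor, read 6535, 6302 and 5934 in the wild-type arrays and 5511, 5175 and 5099 in the S273A arrays, a difference of -0.25 (SE 0.046, adjusted p = 0.00305). A second probe set of similar brightness gave the opposite sign, 0.23 (adjusted p = 0.141). Nucb2 (log2 difference -0.35, adjusted p = 0.0204) and Apln, apelin (log2 difference -0.20, adjusted p = 0.0134), were lower, and Nucb2 lost its call without S273A replicate 3 or wild-type replicate 2 or 3 (adjusted p up to 0.0804) and Apln without S273A replicate 3 or wild-type replicate 1 (adjusted p up to 0.0651). Without S273A replicate 3 the count of lower hormones was 2.

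Cholesterol synthesis genes leaned upward, with 12 of 15 above 0 and a median of 0.165 against -0.0054 for all genes. Of the 15, 2 were called, both higher, or 13.3%, against 7.78% of all genes called. Msmo1, a sterol demethylation enzyme, read 1261, 1217 and 1165 in the wild-type arrays and 1579.6, 1750.4 and 1629 in the S273A arrays, with no overlap and a difference of 0.44 (SE 0.054, adjusted p = 0.000115). Fdft1, squalene synthase, was higher (log2 difference 0.24, adjusted p = 0.0423) and lost its call without S273A replicate 2 or 3, any 1 untreated wild-type array, any 1 rosiglitazone array or MRL24 replicate 1 or 3 (adjusted p up to 0.168). Abca1, the exporter of cellular cholesterol, fell: 904, 1032 and 802 in the wild-type arrays and 671, 678 and 717 in the S273A arrays, a difference of -0.39 (SE 0.084, adjusted p = 0.00909). Its other probe sets gave -0.047 (adjusted p = 0.913) and 0.032 (adjusted p = 0.951). It was the single call among 8 genes of cholesterol efflux. The sterol response element, searched as ATCACCCCA on either strand of the 300 bases around the start, was in 0.28% of all promoters and in 1 of 11 synthesis genes with a promoter there, Srebf2, which was not called.

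Interferon-response genes were lower in S273A cells where they changed. Of 41 tested 13 were lower and 0 higher, against 5.48% and 2.31% of all genes, and 32 of 41 had negative differences, with a median of -0.157. With single arrays left out the number lower was 9 to 13, and in the fit of the 6 arrays alone it was 7. Interferons act through STAT and IRF factors that bind the interferon-stimulated response element, whose core is a pair of GAAA letters set 2 bases apart. This core was searched on both strands of the 300 bases from 250 before to 50 after each gene's start in RefSeq (build GRCm38.p6). It was present in 3.44% of all 32851 promoters and 3.71% of those of 7034 tested genes. It stood in 14 of the 33 interferon genes with a promoter there (42.4%), and in 7 of the 11 called ones (63.6%). Called lower genes as a whole had it in 28 of 372 (7.53%) and called higher genes in 8 of 157 (5.1%). The windows around the matches upstream of 6 called members are shown, with each match in capitals. The call of Ifitm2 did not hold with each array left out, as given below. The core also stood upstream of members that were not called, among them Gbp2, Igtp, Rsad2 and Stat2, whose windows are not shown. Whether the element bears on the lower levels was not tested.
Ifit3: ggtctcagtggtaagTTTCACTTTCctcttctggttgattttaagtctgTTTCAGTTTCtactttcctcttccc
Ifit1: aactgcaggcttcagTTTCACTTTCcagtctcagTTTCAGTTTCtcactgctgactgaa
Bst2: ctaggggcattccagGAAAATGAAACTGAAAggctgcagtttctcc
Irgm1: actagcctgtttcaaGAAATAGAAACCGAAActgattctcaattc
Gbp3: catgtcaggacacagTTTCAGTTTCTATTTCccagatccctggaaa
Ifitm2: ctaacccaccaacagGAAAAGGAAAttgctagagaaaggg
All are written 5′ to 3′ in the direction of the gene. They lie before the start used for each gene, which for Ifit3 is downstream of the outermost end of its RefSeq gene record. The positions are Ifit3 at chr19:34583358-34583431 on the plus strand, Ifit1 at chr19:34640770-34640828 on the plus strand, Bst2 at chr8:71537572-71537617 on the minus strand, Irgm1 at chr11:48871421-48871465 on the minus strand, Gbp3 at chr3:142559984-142560029 on the plus strand and Ifitm2 at chr7:140955983-140956022 on the minus strand. A match on the opposite strand reads TTTC in place of GAAA.

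Ifit3, an RNA-binding antiviral effector with 2 separate matches, read 1616, 1629 and 1622 in the wild-type arrays and 1170.0, 1155 and 1133 in the S273A arrays. The wild-type arrays were nearly equal, all S273A arrays were lower, and the difference was -0.49 (SE 0.052, adjusted p = 3.03e-05). The nearby Ifit1, which binds RNA with foreign cap structures, read 509.6, 546 and 555 in the wild-type arrays and 355, 398 and 415 in the S273A arrays, a difference of -0.45 (SE 0.085, adjusted p = 0.00378). Bst2, tetherin, which holds budding viruses at the membrane, read 1931, 2157 and 1896 in the wild-type arrays and 1531, 1411 and 1281 in the S273A arrays, a difference of -0.50 (SE 0.079, adjusted p = 0.00101). None of these groups overlapped. Usp18, which removes ISG15 and damps interferon receptor signalling, read 328, 368 and 359 in the wild-type arrays and 219, 242 and 263 in the S273A arrays, a difference of -0.52 (SE 0.093, adjusted p = 0.00258). Gbp3 and Irgm1 are GTPases that act against pathogens within the cell. They fell, with log2 differences of -0.52 (adjusted p = 0.0107) and -0.41 (adjusted p = 0.00383), and Oasl2 and Ifi35 with -0.43 (adjusted p = 0.0088) and -0.39 (adjusted p = 0.00586). The remaining 5 calls did not hold with each array left out. Ifit2 (log2 difference -0.49, adjusted p = 0.0287) lost it without S273A replicate 2 or 3 or wild-type replicate 1 or 3 (adjusted p up to 0.13), and Samhd1 (log2 difference -0.34, adjusted p = 0.0118) without S273A replicate 3 (adjusted p = 0.0597). Parp9 (log2 difference -0.36, adjusted p = 0.0445) lost it without S273A replicate 1 or 3, any 1 untreated wild-type array, any 1 rosiglitazone array or any 1 MRL24 array (adjusted p up to 0.158). Ifitm3 (log2 difference -0.17, adjusted p = 0.0217) lost it without S273A replicate 1 or 2 (adjusted p up to 0.0957) and Ifitm2 (log2 difference -0.14, adjusted p = 0.0398) without S273A replicate 2 or 3, wild-type replicate 2 or 3, rosiglitazone replicate 2 or any 1 MRL24 array (adjusted p up to 0.135). Ifitm2 and Ifitm3 are near-identical copies, so their probe sets may read both.

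The ligand-treated cells differed from S273A at some of these genes and not at others. Ifit3 read 1358, 1450.1 and 1537 with rosiglitazone and 1570.5, 1572 and 1546 with MRL24, and S273A was lower, with differences of -0.32 (SE 0.052, adjusted p = 0.000753) and -0.43 (SE 0.052, adjusted p = 0.000112). Usp18 was lower with S273A than with MRL24, with a difference of -0.52 (SE 0.093, adjusted p = 0.00259), and its difference from rosiglitazone was -0.28 (SE 0.093, adjusted p = 0.0715). Bst2 read 1266, 1501 and 1517 with rosiglitazone, close to S273A, with a difference of -0.02 (SE 0.079, adjusted p = 0.92).

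**Figure D4:**
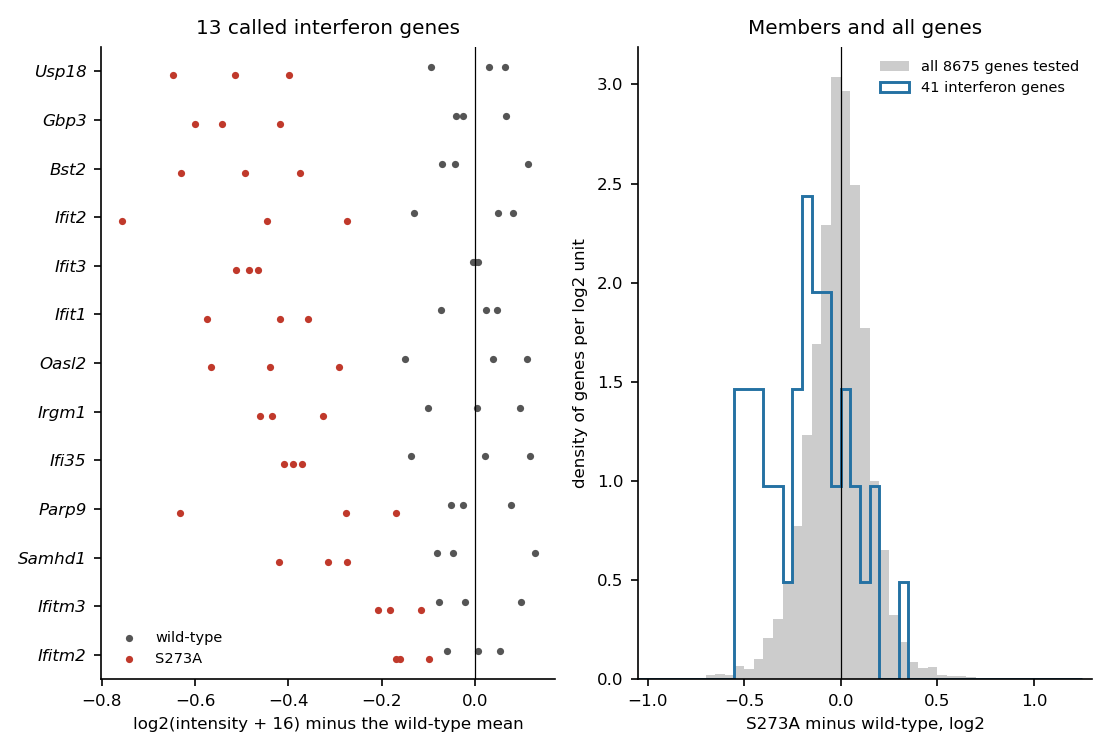
Left, the 13 called interferon-response genes with 1 point per array, as log2(intensity + 16) minus the wild-type mean. Right, the density of the S273A minus wild-type log2 differences of the 41 tested interferon genes (outline) and of all 8675 genes (grey), where the interferon genes have a median of -0.157 and the whole set -0.0054.

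Of 37 growth factor ligands and receptor tyrosine kinases tested 8 were lower and 0 higher, against 5.48% lower and 2.31% higher over all genes, with 8 to 9 lower when any array was left out. Gdnf, the glial cell line-derived neurotrophic factor, read 561, 578 and 535 in the wild-type arrays and 358, 352 and 345 in the S273A arrays, a difference of -0.64 (SE 0.073, adjusted p = 5.61e-05). Pdgfra, the PDGF receptor that marks fibroblasts and fat cell precursors, read 2267, 2038 and 2097 in the wild-type arrays and 1389, 1442 and 1262 in the S273A arrays, a difference of -0.64 (SE 0.059, adjusted p = 7.83e-06). Its groups were far apart, but a second, dimmer probe set showed -0.028 (adjusted p = 0.942). Efnb2, a membrane ligand of Eph receptors, read 854, 737 and 844 in the wild-type arrays and 582, 529 and 448 in the S273A arrays, a difference of -0.63 (SE 0.089, adjusted p = 0.000415). Of its further probe sets 1 was called, at -0.82 (adjusted p = 0.00582), and 2 were not, at -0.24 (adjusted p = 0.425) and -0.034 (adjusted p = 0.921). Ereg, epiregulin, a ligand of the EGF receptor, read 4912, 5059 and 4883 in the wild-type arrays and 3791, 3897 and 3782 in the S273A arrays, with tight groups and a difference of -0.37 (SE 0.037, adjusted p = 1.66e-05). The other 4 were Fgf18 (log2 difference -0.52, adjusted p = 0.00438), the collagen receptor Ddr1 (log2 difference -0.40, adjusted p = 0.000511), Pdgfrb (log2 difference -0.30, adjusted p = 0.00421) and Vegfa.

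The list of genes that respond to growth factors through ERK, which includes feedback inhibitors of the pathway, had calls in both directions. Of 35 tested 9 were lower and 3 higher, against 5.48% lower and 2.31% higher over all genes, with 8 to 11 lower when any array was left out. Among the falls were feedback inhibitors of the pathway. Spred2 read 2733, 2906 and 2597 in the wild-type arrays and 1890.3, 1818 and 1736 in the S273A arrays, with no overlap and a difference of -0.59 (SE 0.056, adjusted p = 1.08e-05). Its dimmer probe set, above the brightness limit, did not pass and gave -0.0067 (adjusted p = 0.976). Spred1 fell, with a log2 difference of -0.40 (adjusted p = 0.000415), and Dusp6, the phosphatase of ERK, with -0.34 (adjusted p = 0.00705). The transcription factor gene Egr1 fell too: it read 4303, 4450.3 and 4031 in the wild-type arrays and 3604, 3513 and 3357 in the S273A arrays, a difference of -0.29 (SE 0.045, adjusted p = 0.000992), while Fosl2 and Klf10 differed by -0.32 (adjusted p = 0.00183) and -0.28 (adjusted p = 0.00155). Egr2 is given above. The matricellular gene Ccn1 fell, with a log2 difference of -0.28 (adjusted p = 0.000172). Atf3, a stress-induced repressor, rose by 0.40 (adjusted p = 0.00332), Dusp1, a phosphatase of p38 and JNK, by 0.33 (adjusted p = 0.00021), and Zfp36, an mRNA decay factor, by 0.29 (adjusted p = 0.00384).

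Of 47 collagens and structural matrix proteins 12 were lower and 2 higher, against 5.48% lower and 2.31% higher over all genes. The list as a whole was centred near 0, with 23 members above 0, 24 below and a median of -0.0046. Without S273A replicate 3 the number lower was 7. Postn, periostin, read 401, 405 and 409 in the wild-type arrays and 271, 248 and 219.5 in the S273A arrays, with wild-type arrays nearly equal and a difference of -0.69 (SE 0.084, adjusted p = 0.000114). Fbln5, an elastic fibre protein, fell, with a log2 difference of -0.46 (adjusted p = 0.000971) and Mfap5, a microfibril protein, with -0.47 (adjusted p = 0.011). The second Mfap5 probe set, of similar brightness, did not pass, at 0.0097 (adjusted p = 0.978). Col3a1, type III collagen, was among the brightest probe sets, at 12653, 11633 and 12166 in the wild-type arrays and 9497, 9838 and 9054 in the S273A arrays, a difference of -0.36 (SE 0.04, adjusted p = 4.69e-05). Its dimmer probe set fell more, with a log2 difference of -0.79 (adjusted p = 8.52e-05). Col1a2, of type I collagen, read 13681, 11507 and 13447 in the wild-type arrays and 10235, 10495 and 8960.3 in the S273A arrays, a difference of -0.38 (SE 0.062, adjusted p = 0.00137), and again its dimmer probe set fell more, with a log2 difference of -0.76 (adjusted p = 3.8e-05). Col5a2 fell, with a log2 difference of -0.18 (adjusted p = 0.00605). Col1a1 (log2 difference -0.28, adjusted p = 0.0122) lost its call without S273A replicate 3 or wild-type replicate 3 (adjusted p up to 0.069).

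Against this, Col4a1, a chain of basement membrane collagen, rose: 6363, 6073 and 6266 in the wild-type arrays and 7483, 8079.5 and 7601 in the S273A arrays, a difference of 0.31 (SE 0.044, adjusted p = 0.000442). Col18a1, the source of endostatin, was higher (log2 difference 0.23, adjusted p = 0.0248) and lost its call without S273A replicate 2 or 3 (adjusted p up to 0.106). The other 5 lower matrix genes were Col16a1, Emilin1, Sparc, Vcan and Ogn, each of which lost its call without at least 1 array. Col16a1 (log2 difference -0.25, adjusted p = 0.0134) lost it without S273A replicate 3 or wild-type replicate 1 (adjusted p up to 0.0709), Emilin1 (log2 difference -0.24, adjusted p = 0.0173) without S273A replicate 1 or wild-type replicate 3 (adjusted p up to 0.0706), and Sparc (log2 difference -0.12, adjusted p = 0.0277) without S273A replicate 1 or 3 or wild-type replicate 3 (adjusted p up to 0.114). Vcan, versican (log2 difference -0.23, adjusted p = 0.0445), lost it without S273A replicate 2 or 3, wild-type replicate 1 or 2, rosiglitazone replicate 1 or 3 or any 1 MRL24 array (adjusted p up to 0.183), and Ogn (log2 difference -0.41, adjusted p = 0.0485) without any 1 S273A array, wild-type replicate 1 or 2, any 1 rosiglitazone array or any 1 MRL24 array (adjusted p up to 0.177).

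Proteases of the matrix and their inhibitors had 8 of 32 lower and 1 higher, against 5.48% lower and 2.31% higher over all genes. The number lower was 5 without wild-type replicate 1, S273A replicate 2 or S273A replicate 3, and leaving out wild-type replicate 1 or S273A replicate 1 gave 5 or 2 higher. Timp3, an inhibitor bound to the matrix, read 3973, 4461 and 4064 in the wild-type arrays and 2810.1, 2792 and 2612 in the S273A arrays, with no overlap and a difference of -0.60 (SE 0.052, adjusted p = 4.12e-06). Its further probe sets, all above the brightness limit, gave -0.46 (adjusted p = 0.000332), -0.31 (adjusted p = 0.0464) and -0.032 (adjusted p = 0.91), so 1 of them did not pass. Serping1, the C1 inhibitor of complement, fell, with a log2 difference of -0.54 (adjusted p = 0.000304). Mmp10 and Mmp14, a secreted and a membrane-bound metalloprotease, fell, with log2 differences of -0.34 (adjusted p = 0.000762) and -0.24 (adjusted p = 0.00305), and Adamts1 with -0.32 (adjusted p = 0.00297). Mmp3, stromelysin 1, went the other way: 383, 373 and 375 in the wild-type arrays and 529, 540.4 and 504 in the S273A arrays, a difference of 0.46 (SE 0.09, adjusted p = 0.00491). The other 3 lower were Adamts5, Adam10 and Adam17. Adamts5 (log2 difference -0.44, adjusted p = 0.0205) lost its call without S273A replicate 2 or 3 or wild-type replicate 1 (adjusted p up to 0.0698), Adam10 (log2 difference -0.27, adjusted p = 0.0267) without any 1 S273A array or wild-type replicate 1 or 2 (adjusted p up to 0.0794), and Adam17 (log2 difference -0.23, adjusted p = 0.0492) without any 1 S273A array, wild-type replicate 1 or 2, any 1 rosiglitazone array or any 1 MRL24 array (adjusted p up to 0.15).

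Surface markers of fibroblasts and fat cell precursors gave 4 of 17 lower and 0 higher, against 5.48% lower and 2.31% higher over all genes, and 2 lower without S273A replicate 3. Pdgfra and Pdgfrb, given above, held their calls. Thy1 (log2 difference -0.24, adjusted p = 0.0132) lost it without S273A replicate 3 (adjusted p = 0.0586) and Cd34 (log2 difference -0.30, adjusted p = 0.0358) without S273A replicate 1 or 3, wild-type replicate 1 or 3 or MRL24 replicate 2 (adjusted p up to 0.134). Genes of the cytoskeleton and of contractile fibroblasts gave 3 of 25 lower and 1 higher, against 5.48% lower and 2.31% higher over all genes. Ccn2, connective tissue growth factor, read 2412, 2329.9 and 2211 in the wild-type arrays and 1679, 1569.6 and 1574 in the S273A arrays, with no overlap and a difference of -0.52 (SE 0.05, adjusted p = 1.23e-05). Vcl, the focal adhesion protein vinculin, fell, with a log2 difference of -0.21 (adjusted p = 0.0118), while its second probe set had the opposite sign, 0.17 (adjusted p = 0.238), and did not pass. Ccn1 is given above. Lims2 was higher (log2 difference 0.21, adjusted p = 0.0485) and lost its call without S273A replicate 2 or 3, wild-type replicate 2 or 3, any 1 rosiglitazone array or any 1 MRL24 array (adjusted p up to 0.16).

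Wnt and Hedgehog genes fell where they changed, with 5 of 24 lower and 0 higher, against 5.48% lower and 2.31% higher over all genes. Dkk3, a secreted Dickkopf family protein, read 1019, 952 and 1074 in the wild-type arrays and 682, 715 and 632 in the S273A arrays, a difference of -0.57 (SE 0.069, adjusted p = 0.000101). Fzd7, a Wnt receptor, read 3164, 3092 and 3096 in the wild-type arrays and 2512, 2591 and 2425 in the S273A arrays, a difference of -0.31 (SE 0.043, adjusted p = 0.000304). Its second probe set gave 0.044 (adjusted p = 0.951). Ptch1, the Hedgehog receptor, whose gene is itself a target of the pathway, fell, with a log2 difference of -0.39 (adjusted p = 0.00262). Wnt5a and Ctnnb1 are given above. Of 36 genes of TGF-β and BMP signalling 5 were lower and 2 higher, against the same shares of all genes. Id1 rose by 0.29 (adjusted p = 0.00243) while its relative Id2 fell, as given above. Smad7, the inhibitory SMAD, fell, with a log2 difference of -0.28 (adjusted p = 0.00437), Fstl1, follistatin-like 1, with -0.29 (adjusted p = 0.00101) and Ltbp2 with -0.21 (adjusted p = 0.00501). Smad1 (log2 difference -0.35, adjusted p = 0.00983) lost its call without S273A replicate 3 (adjusted p = 0.0533), and Tgfbi, which was higher (log2 difference 0.12, adjusted p = 0.0347), without any 1 S273A array, wild-type replicate 1 or 3 or any 1 MRL24 array (adjusted p up to 0.125). Without wild-type replicate 2 the number higher was 4.

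**Figure D5:**
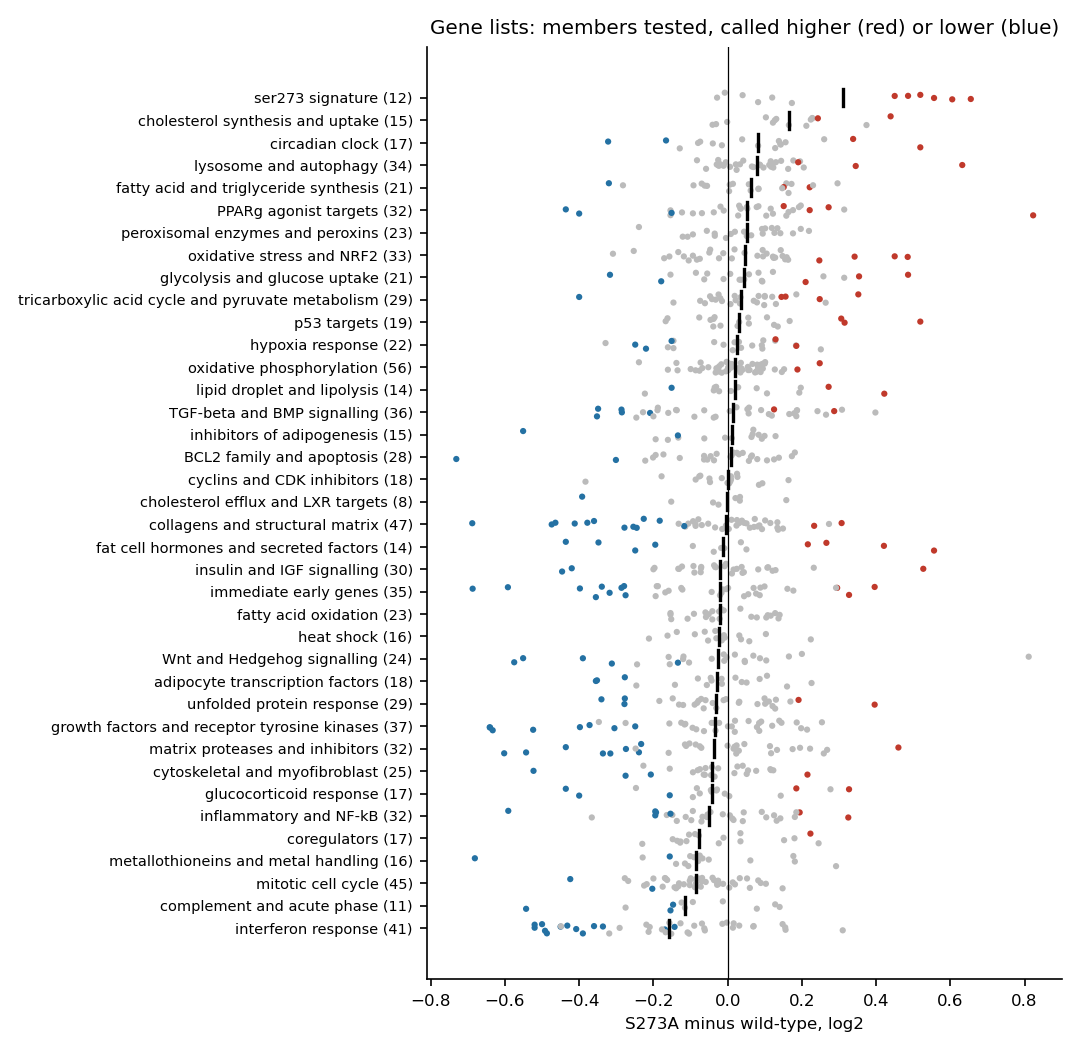
Each row is a gene list with its number of tested members in parentheses, each point a member placed at its S273A minus wild-type log2 difference, and the black bar the list's median; red and blue points were called higher and lower, and vertical scatter within a row has no meaning. The Ser273 list has the highest median, 0.311, and the interferon list the lowest, -0.157, while most medians lie near 0.

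Inflammatory genes moved both ways. Of 32 tested 5 were lower and 2 higher, against 5.48% and 2.31% of all genes, and without wild-type replicate 2 the number higher was 4. Cxcl5, a chemokine for neutrophils, read 542, 502 and 501 in the wild-type arrays and 367, 305 and 339 in the S273A arrays, a difference of -0.59 (SE 0.095, adjusted p = 0.00112). The chemokines Ccl2 and Cxcl12 fell, with log2 differences of -0.19 (adjusted p = 0.00644) and -0.20 (adjusted p = 0.00257), and Saa3, an acute-phase protein, with -0.15 (adjusted p = 0.00983). Ptgs2, cyclooxygenase 2, was higher on its brightest probe set: 12752, 10607 and 13020.3 in the wild-type arrays and 14756, 15672 and 14990.2 in the S273A arrays, a difference of 0.33 (SE 0.065, adjusted p = 0.00578). A second probe set of nearly equal brightness did not pass, at -0.032 (adjusted p = 0.751). Cxcl1 was higher (log2 difference 0.19, adjusted p = 0.0263) and lost its call without any 1 S273A array or wild-type replicate 1 or 3 (adjusted p up to 0.101), and Nfkbiz was lower (log2 difference -0.20, adjusted p = 0.0404) and lost it without S273A replicate 2 or 3, wild-type replicate 1 or 2, rosiglitazone replicate 2 or any 1 MRL24 array (adjusted p up to 0.165). Of 11 complement and acute-phase genes 3 were lower, Serping1, Saa3 and C1s1 (log2 difference -0.15, adjusted p = 0.0494), the last losing its call without S273A replicate 1 or 3, any 1 untreated wild-type array, any 1 rosiglitazone array or any 1 MRL24 array (adjusted p up to 0.161). Tnf, Il1b and Il1a were below the brightness limit.

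Calls among antioxidant and p53 genes were all rises. Of 33 genes of oxidative stress defence 4 were higher and 0 lower, against 2.31% higher and 5.48% lower over all genes. Selenop, the selenium-carrying plasma protein, read 2416, 2437 and 2288 in the wild-type arrays and 3126, 3530.3 and 3366 in the S273A arrays, with no overlap and a difference of 0.48 (SE 0.061, adjusted p = 0.000155). It was also higher than with either ligand, by 0.59 (SE 0.061, adjusted p = 1.09e-05) over rosiglitazone and 0.51 (SE 0.061, adjusted p = 0.000118) over MRL24. Mgst1, a membrane glutathione transferase, rose by 0.34 (adjusted p = 0.00355), Selenbp1 is given above, and Hmox1, haem oxygenase 1 (log2 difference 0.25, adjusted p = 0.00896), lost its call without S273A replicate 2 (adjusted p = 0.051). Without wild-type replicate 3, 2 members were lower. Of 19 p53 targets 3 were higher and 0 lower, against the same shares, with 3 higher when any array was left out. Besides Ccng1 they were the stress genes Gadd45a (log2 difference 0.32, adjusted p = 0.00332) and Gadd45b (log2 difference 0.31, adjusted p = 0.00183). Of 34 lysosome and autophagy genes 3 were higher and 0 lower, and 6 were higher without wild-type replicate 1. That is 8.82% called, near the 7.78% of all genes. Atg7, an activating enzyme of autophagy, rose by 0.34 (adjusted p = 0.00512) alongside Cd68, and Atp6v1a of the proton pump (log2 difference 0.19, adjusted p = 0.0205) lost its call without S273A replicate 1 or 2 or wild-type replicate 3 (adjusted p up to 0.0884).

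Of 45 mitotic genes 2 were called lower, or 4.44%, against 5.48% of all genes. Negative differences were found at 35 of the 45, with a median of -0.085 against -0.0054 over all genes. Mki67, the antigen Ki-67 of dividing cells, read 564, 561 and 525 in the wild-type arrays and 439, 424 and 359 in the S273A arrays, a difference of -0.42 (SE 0.079, adjusted p = 0.00332). Mcm6, of the replicative helicase (log2 difference -0.20, adjusted p = 0.0401), lost its call without S273A replicate 1 or 3, any 1 untreated wild-type array, rosiglitazone replicate 3 or MRL24 replicate 1 or 2 (adjusted p up to 0.141). None of 18 cyclins and CDK inhibitors was called by limma, with 3 at an unadjusted p under 0.05. Of 28 genes of the BCL2 family and apoptosis 2 were lower, or 7.14%, against 5.48% of all genes. They were Bcl2l11 and Apaf1 (log2 difference -0.30, adjusted p = 0.0172), the latter losing its call without S273A replicate 2 or wild-type replicate 1 (adjusted p up to 0.0855). Of 29 genes of the unfolded protein response 3 were lower and 2 higher, against 5.48% lower and 2.31% higher over all genes. Dnajb9, a chaperone made through XBP1, fell with Xbp1, with a log2 difference of -0.28 (adjusted p = 0.00331). Edem1 (log2 difference -0.34, adjusted p = 0.0121) lost its call without S273A replicate 2 or 3 (adjusted p up to 0.0599), and Atf4, which was higher (log2 difference 0.19, adjusted p = 0.0131), without S273A replicate 2 (adjusted p = 0.0687). Of 16 heat shock genes 0 were called by limma, with 4 at an unadjusted p under 0.05.

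Of 17 clock genes 2 were higher, Nr1d1 among them, and 2 lower, against 2.31% higher and 5.48% lower over all genes. Cry2, a repressor of the clock, fell, with a log2 difference of -0.32 (adjusted p = 0.00464). Dbp, an output factor (log2 difference 0.34, adjusted p = 0.0165), lost its call without S273A replicate 2 or 3 or wild-type replicate 1 (adjusted p up to 0.0662), and Bhlhe40 (log2 difference -0.17, adjusted p = 0.0205) without S273A replicate 1 or 3 or wild-type replicate 1 (adjusted p up to 0.0783). Of 22 hypoxia genes 2 were higher and 3 lower, against 2.31% higher and 5.48% lower over all genes. Hif1a, the oxygen-sensing factor, fell, with a log2 difference of -0.22 (adjusted p = 0.00991). A second probe set was called at -0.42 (adjusted p = 0.00135), while 2 others did not pass, at 0.16 (adjusted p = 0.582) and 0.037 (adjusted p = 0.922). Vegfa is given above. Ndrg1 was higher in that list (log2 difference 0.13, adjusted p = 0.0398) and lost its call without S273A replicate 2 or 3, wild-type replicate 2 or 3, any 1 rosiglitazone array or any 1 MRL24 array (adjusted p up to 0.138). Ddit4 was higher (log2 difference 0.18, adjusted p = 0.0421) and lost it without any 1 S273A array, wild-type replicate 3, any 1 rosiglitazone array or any 1 MRL24 array (adjusted p up to 0.152). P4ha2 was lower (log2 difference -0.15, adjusted p = 0.0428) and lost it without S273A replicate 1 or 3, wild-type replicate 1 or 3, any 1 rosiglitazone array or any 1 MRL24 array (adjusted p up to 0.159). Of 17 glucocorticoid-responsive genes 3 were lower and 2 higher, against the same shares of all genes, with 5 lower without wild-type replicate 2. Mt2, metallothionein 2, fell, with a log2 difference of -0.16 (adjusted p = 0.00107) from a very bright level, 27229.6, 27229 and 27422 in the wild-type arrays and 24490.5, 24976 and 24006 in the S273A arrays. Angptl4, Pdk4 and Dusp1 in that list are given above. Mt2 and Slc41a2 were the calls among 16 genes of metal handling, or 12.5%. Both were lower, against 5.48% lower over all genes. Of 15 imprinted genes 0 were called by limma, with 1 at an unadjusted p under 0.05.

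Markers of other cell types were checked because several rises fell among them. Of 18 macrophage markers on the array 13 lay below the brightness limit. Of the 5 tested 1 was higher, Cd68, and 0 lower, against 2.31% higher and 5.48% lower over all genes. Without wild-type replicate 3 the number higher was 2. The summed intensity of the 18 was 3633 to 4027 in wild-type and 4358 to 4566 in S273A arrays. Several defining genes were near background, with Ptprc, the common leukocyte antigen, at 36.8, 57.3 and 51.2 in the wild-type arrays and 45.3, 30.7 and 55.9 in the S273A arrays and Lyz2, the macrophage lysozyme, at 20.8, 7.5 and 24.5 in the wild-type arrays and 15.8, 10.7 and 3.19 in the S273A arrays. Fcer1g, a signalling chain of myeloid receptors, read 9.87, 25.1 and 1 in the wild-type arrays and 13.4, 1.83 and 7.19 in the S273A arrays. Of the 13 below the limit, 11 overlapped between the groups, these 3 among them. The other 2 were higher in every S273A array, while the groups did not overlap at 23.0% of all genes tested. Cybb, a subunit of the phagocyte NADPH oxidase, read 70.0, 62.0 and 81.3 in the wild-type arrays and 129.6, 119 and 129.7 in the S273A arrays, and its adjusted p was 0.0254 when no gene was left out for low brightness. C1qa, a chain of complement C1q, read 9.98, 28.1 and 1.47 in the wild-type arrays and 51.2, 50.7 and 29.7 in the S273A arrays, with an adjusted p of 0.105 in that fit. The 10 neutrophil and myeloid markers summed to 1321 to 1520.1 in wild-type and 2183 to 2262 in S273A arrays. Of their 3 tested members 1 was higher, S100a8, and 0 lower, against the same shares of all genes. Mast cell markers summed to 777 to 882 and 917 to 967. Of the 3 tested mast cell markers 1 was higher and 0 lower, against the same shares of all genes. The called member was Tpsab1, a tryptase (log2 difference 0.48, adjusted p = 0.00347), and Fcer1a and Cma1 were near background. Among 5 tested lymphocyte markers 1 was higher, Il13, and 0 lower, against the same shares of all genes. Cd3e read 22.0, 3.16 and 19.7 in the wild-type arrays and 16.1, 6.2 and 21.3 in the S273A arrays. The 11 lymphocyte markers summed to 965 to 1243 and 1253 to 1364. Each of these summed intensities includes the called member of its list. S100a8 alone read 528, 675 and 472 in the wild-type arrays and 1304, 1344 and 1321 in the S273A arrays. The sums are therefore not separate evidence of a rise across a list.

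The remaining marker lists had 2 to 7 tested members each. The called share of the endothelial, epithelial and pericyte lists was above the 7.78% of all genes. Tek was the call among 4 tested endothelial markers (log2 difference 0.49, adjusted p = 0.0208), and it was lost without S273A replicate 2 or 3 or wild-type replicate 2 (adjusted p up to 0.0994). Pecam1 and Vwf lay below the brightness limit. Of 6 tested epithelial markers 2 were lower and 1 higher, against 5.48% lower and 2.31% higher over all genes. Pkp1 and Krt18, a keratin of simple epithelia (log2 difference -0.46, adjusted p = 0.00348), were lower. Krt19 (log2 difference 0.30, adjusted p = 0.0127) was higher and lost its call without S273A replicate 2 (adjusted p = 0.0702). Epcam, Cdh1, Krt5 and Krt14 were below the brightness limit. Rgs5 was the call among 5 tested pericyte and smooth muscle markers (log2 difference -0.16, adjusted p = 0.0165), lost without S273A replicate 3 (adjusted p = 0.0677). The 19 epithelial markers on the array summed to 4364 to 4624 in wild-type and 4708 to 5107 in S273A arrays. The 10 pericyte and smooth muscle markers summed to 13956 to 14580 and 13059 to 13476. Both sums include called members, so they are not separate evidence. The sums of the endothelial, muscle, cartilage, bone and neural lists overlapped. None of the tested muscle, cartilage, bone or neural markers was called by limma, with 1 muscle marker and 0 of the others at an unadjusted p under 0.05. Sox2, a neural stem cell factor below the brightness limit, read 89.3, 102 and 82.7 in the wild-type arrays and 45.1, 34.4 and 18.6 in the S273A arrays. It was lower in every S273A array, with a log2 difference of -1.18 (adjusted p = 0.00468) when no gene was left out for low brightness. None of 11 control genes was called, with 3 at an unadjusted p under 0.05.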

How the data were processed

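The 12 arrays measured total RNA as biotin-labelled cRNA made with an oligo-dT primer, per the labels' protocols. The authors deposited intensity values per probe set on a linear scale, already similar in distribution between arrays. The normalization and software are not given in the sources used here. Groups follow the sample titles, 3 arrays each.

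Of 22690 probe sets 20380 carried 1 gene symbol, 691 several, 1555 were not named here and 64 were controls. The brightest probe set stood for each of 12393 genes. Genes under the 30th percentile of gene means over all 12 arrays (intensity 132) were left out, which left 8675. A gene dim in the untreated arrays could therefore pass through its ligand-treated arrays, as Car3 and Peg10 did. On log2(value + 16), limma 3.58.1 in R 4.3.3 fitted lmFit and eBayes with a trend to all 12 arrays, so the groups share 1 estimate of the spread (8 residual and 7.56 prior degrees of freedom, median residual SD 0.0969). The main comparison was S273A minus wild-type, and S273A minus each ligand group was tested too, with Benjamini-Hochberg adjustment over all 8675 genes within each comparison. Array number limits the precision. Named genes were the 15 largest rises and 15 largest falls among called genes whose arrays do not overlap, Pparg, the Ser273 list, called members of the lists, and, for lists with few calls, up to 4 members chosen for level or p. Members and lists were chosen with earlier results of these data known. Promoters were searched in RefSeq sequences matched by symbol. The labels do not say whether replicate numbers pair the arrays. Deviations from the group means of same-numbered S273A and wild-type arrays correlated at 0.00245, -0.0328 and -0.0324. No shared deviation was seen, which does not settle whether the arrays were paired. Tables and figures used python 3.11.15, numpy 2.4.6, pandas 2.3.3 and matplotlib 3.10.9.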

Additional observations from a re-analysis of the deposited data

How the results depend on the processing

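The count of called genes, 675 with 200 higher and 475 lower, depended most on which arrays were fitted. With the 6 arrays of the 2 groups alone it was 243, with 58 higher and 185 lower. With every probe set tested on its own it was 1152, with 396 higher and 756 lower, since more features were tested. With 1 array left out it was 396 to 649, with 78 to 230 higher and 278 to 451 lower. The replicate number as a block gave 547 called genes, 154 higher and 393 lower, although the labels do not say whether the numbers pair the arrays. Pseudocounts of 1 and 64 gave 674 and 677, no filter 559, a filter at the 50th percentile 686, the mean of a gene's probe sets 622, arrays set to the same median 640, quantile normalization 689, array weights 586 and no trend 523. A filter at the 30th percentile of all probe sets, chosen after seeing the data, gave 662. Of the 32 called genes among the 30 largest changes and the Ser273 list, 25 kept their call in every setting that gave them a value. The test of every probe set on its own gave counts only, and the filter at the 50th percentile left some genes out. In 41 of 757 pairs of gene and setting a call was lost, and in 0 the sign changed. Of 1440 counts per list and setting 303 moved by more than 1.5 times.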

Other observations

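Calls that held with each array left out also included 194 genes in none of the lists and outside the 30 largest changes. The genes named from these were chosen after their values were seen. Among the falls were 2 cadherins of mesenchymal cells. Cdh2, N-cadherin, read 1063, 1169 and 1009 in the wild-type arrays and 694, 700.0 and 768 in the S273A arrays, with no overlap and a log2 difference of -0.57 (SE 0.075, adjusted p = 0.00021). Cdh11, which marks fibroblasts and bone-forming cells, differed by -0.53 (SE 0.081, adjusted p = 0.000873). Frmd6, an upstream protein of the Hippo pathway, read 4055, 4325 and 3835 in the wild-type arrays and 2719.9, 2785 and 2648 in the S273A arrays, a difference of -0.58 (SE 0.047, adjusted p = 2.93e-06). Dpysl3, a cytoskeletal protein of growing neurites, differed by -0.61 (SE 0.05, adjusted p = 2.93e-06). A hormone and a receptor of the natriuretic system fell as well. Nppb, the B-type natriuretic peptide, read 4067, 4798 and 4099.7 in the wild-type arrays and 2784, 3008 and 3048 in the S273A arrays, a difference of -0.55 (SE 0.063, adjusted p = 6.44e-05). Npr3, the receptor that clears these peptides, read 1568, 1657 and 1569 in the wild-type arrays and 1154, 1111 and 1078 in the S273A arrays, a difference of -0.51 (SE 0.052, adjusted p = 1.66e-05). Neither pair of groups overlapped. Osmr, the receptor chain for oncostatin M, differed by -0.53 (SE 0.091, adjusted p = 0.00198), Slc16a3, the lactate exporter MCT4, with -0.51 (SE 0.045, adjusted p = 4.74e-06), Cyp1b1 with -0.49 (SE 0.05, adjusted p = 1.8e-05) and Gas1, a growth arrest protein that binds Hedgehog ligands, with -0.50 (SE 0.051, adjusted p = 1.95e-05).

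Rises outside the lists were fewer and smaller. Gadd45g, the third gene of the GADD45 stress family, read 1189.5, 1281 and 1186 in the wild-type arrays and 1771, 1713 and 1614 in the S273A arrays, with no overlap and a difference of 0.47 (SE 0.056, adjusted p = 9.11e-05). Foxc2, a forkhead factor of mesoderm and fat tissue, read 1368, 1471 and 1361 in the wild-type arrays and 1991, 1973 and 1826 in the S273A arrays, a difference of 0.46 (SE 0.058, adjusted p = 0.000157). Tmem106b, a lysosomal membrane protein, differed by 0.48 (SE 0.076, adjusted p = 0.00106), and Tcn2, the carrier of vitamin B12, by 0.46 (SE 0.095, adjusted p = 0.00753).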
